A study of Mus musculus with 18 samples.

Results

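The ionotropic glutamate receptor subunits and the GABA-A receptor subunits were followed through the infarct core, the peri-infarct tissue and the contralateral side of the mouse brain. Genes were taken by symbol from the count table (Gria, Grin, Grik and Grid genes, and Gabra, Gabrb, Gabrg, Gabrd, Gabre and Gabrq genes) and kept where at least 3 libraries held at least 10 counts. Of 33 matching symbols among 18922 genes, 31 were kept: 18 glutamate receptor subunits (4 AMPA, 7 NMDA, 5 kainate, 2 delta) and 13 GABA-A subunits. Gabra6 reached 10 counts in 1 library and Gabre in 2, so both were left out, while Grin3b reached it in 4 libraries and Gabrq in 10. All 31 passed the expression filter of the tests.

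The study compared Trem2 knockout with wild-type mice, all male, aged 8 to 10 weeks and of C57Bl6 background. Every animal carried a photothrombotic stroke, in which a laser (125 mW, 525 nm) activates injected Rose Bengal (50 mg/kg) in the vessels of a circle 3 mm wide and occludes them. Brains were taken 7 days after injury, and core, peri-infarct and contralateral tissue were separated by TTC staining, which leaves dead tissue pale. Trem2 is a surface receptor that microglia and macrophages use to sense lipids and debris, and the labels do not say how the knockout allele was made. Each of the 6 groups of genotype and region held 3 libraries of polyadenylated RNA. The groups used here hold no uninjured brain, so the contralateral side of injured animals is the reference. Libraries are numbered without a statement that numbers are separate animals, so the p-values given here describe the scatter of these libraries, which may be technical.

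Ionotropic receptors are ion channels that open when a transmitter binds. AMPA, NMDA and kainate receptors are tetramers that carry fast excitatory current, with NMDA receptors also passing calcium. GABA-A receptors are pentamers that pass chloride and carry most fast inhibition in the cortex, most often built of alpha, beta and gamma subunits. Subunit choice sets the properties: Gria2 makes AMPA receptors nearly impermeable to calcium, and Grin1 is obligatory in NMDA receptors. Gabra5 and Gabrd belong largely to extrasynaptic receptors.

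Most GABA-A genes lie in clusters, such as Gabrg1, Gabra2, Gabra4 and Gabrb1 on chromosome 5, and Gabra3 and Gabrq on the X chromosome. RefSeq promoter windows (GRCm38.p6, whereas the submitters' notes name GRCm39) were found for 19 of the 31 genes. The 250 bases before 1 annotated start of each are shown for 4 of them. The gene start of Gabrb2 lies upstream of its window, at chr11:42419515. Gabra4, at chr5:71658309-71658558 (minus strand), and Gabrb1, at chr5:71657671-71657920 (plus strand), are shown because their transcripts start on opposite strands and overlap by 388 bases. They are also the 2 members whose deposited counts were not all whole numbers, and since no use of strand is stated, reads from that overlap cannot be assigned to one of them. Gabrb2, at chr11:42420190-42420439 (plus strand), and Grin1, at chr2:25319188-25319437 (minus strand), are shown because they were among the members called lower in the core of both genotypes when 1 outlying wild-type core library was left out. Capitals mark a GC box, an E box, a cyclic AMP response element or a TATA box on either strand, and no match overlapped another.
Gabra4: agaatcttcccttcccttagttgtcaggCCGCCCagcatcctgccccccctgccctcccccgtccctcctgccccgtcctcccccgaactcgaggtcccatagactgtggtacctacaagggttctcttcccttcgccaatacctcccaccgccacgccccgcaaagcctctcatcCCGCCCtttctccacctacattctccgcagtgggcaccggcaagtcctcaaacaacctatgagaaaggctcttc
Gabrb1: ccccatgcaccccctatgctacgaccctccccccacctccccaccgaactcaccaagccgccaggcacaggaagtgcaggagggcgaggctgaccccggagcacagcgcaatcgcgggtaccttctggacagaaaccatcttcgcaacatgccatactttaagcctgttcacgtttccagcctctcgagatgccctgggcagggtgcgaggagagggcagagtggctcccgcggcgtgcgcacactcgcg
Gabrb2: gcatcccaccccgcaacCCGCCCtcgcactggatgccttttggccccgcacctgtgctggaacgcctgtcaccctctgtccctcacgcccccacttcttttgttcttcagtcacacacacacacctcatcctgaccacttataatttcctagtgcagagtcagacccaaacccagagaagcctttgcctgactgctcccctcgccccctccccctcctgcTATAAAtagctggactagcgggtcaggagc
Grin1: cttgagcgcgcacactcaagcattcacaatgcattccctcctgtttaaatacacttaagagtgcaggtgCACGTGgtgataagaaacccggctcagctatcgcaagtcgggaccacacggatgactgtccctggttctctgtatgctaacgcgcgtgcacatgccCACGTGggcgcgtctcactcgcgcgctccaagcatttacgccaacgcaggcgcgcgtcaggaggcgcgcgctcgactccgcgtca
Each is written 5′ to 3′ on its gene's strand. A GC box was searched as GGGCGG and was in 32.7% of all 32851 windows of this length and in 39.1% of the 23 windows of members. An E box, searched as CACGTG, was in 6.02% of all windows and in 4.35% of those of members. A TATA box, searched as TATAAA, was in 12.4% and 17.4%. A cyclic AMP response element, searched as TGACGTCA, was in 1.55% of all windows and in 0 of the 23. The Gabra4 window holds 2 GC boxes, Gabrb2 holds 1 GC box and 1 TATA box, and Grin1 holds 2 E boxes, while the letters searched were not in the Gabrb1 window.

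The total count per library was 16993978 to 17691801 in 17 libraries and 18713770 in replicate 3 of the wild-type core. That library stood apart. Its 10 most abundant genes took 15.5% of counts against 3.27% to 5.38% elsewhere, and the 31 members took 0.00838% of its counts against 0.241% to 0.544% in the other 17. Its 16 pan-neuronal markers summed to 112 TPM (a level scaled for transcript length and for depth), against 6411 and 5638 TPM in wild-type core replicates 1 and 2. Its microglia and macrophage markers summed to 14060 TPM against 5929 and 6774. Trem2 was at 20.5 to 758 CPM (counts scaled for depth alone) in wild-type and 0.347 to 8.58 CPM in knockout libraries, with no overlap. Counts of members called are given with all 18 libraries and with the 17 others, while changes of single members and of gene lists come from the 17-library fit unless stated. That use of the 17-library fit was decided after the outlying library was seen. In bulk tissue, fewer neurons and less RNA per neuron cannot be told apart.

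In contralateral wild-type tissue the members summed to 2189 ± 143 TPM (SD, n = 3). GABA-A subunits gave 1006 ± 65.8 TPM of this, AMPA subunits 625 ± 68.3, NMDA subunits 359 ± 30.4, kainate subunits 160.1 ± 11.8 and delta subunits 38.8 ± 2.95. Among the highest per transcript length were Gria2 (253 ± 34.4 TPM), Grin1 (227 ± 12.9) and Gria1 (180.2 ± 45.8). Gria2 and Grin1 differed by less than the larger SD, and the libraries of Gria1 and Grin1 overlapped. Gabra3 (107 ± 12.5 TPM) and Gabrb2 (107 ± 10.2) did not differ beyond their spread. Among kainate subunits Grik5, which needs a partner to form a channel, was highest at 90.9 ± 6.15 TPM. Grin3b (0.373 ± 0.186 TPM) and Gabrq (0.9 ± 1.15) were at the bottom.

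**Figure D1:**
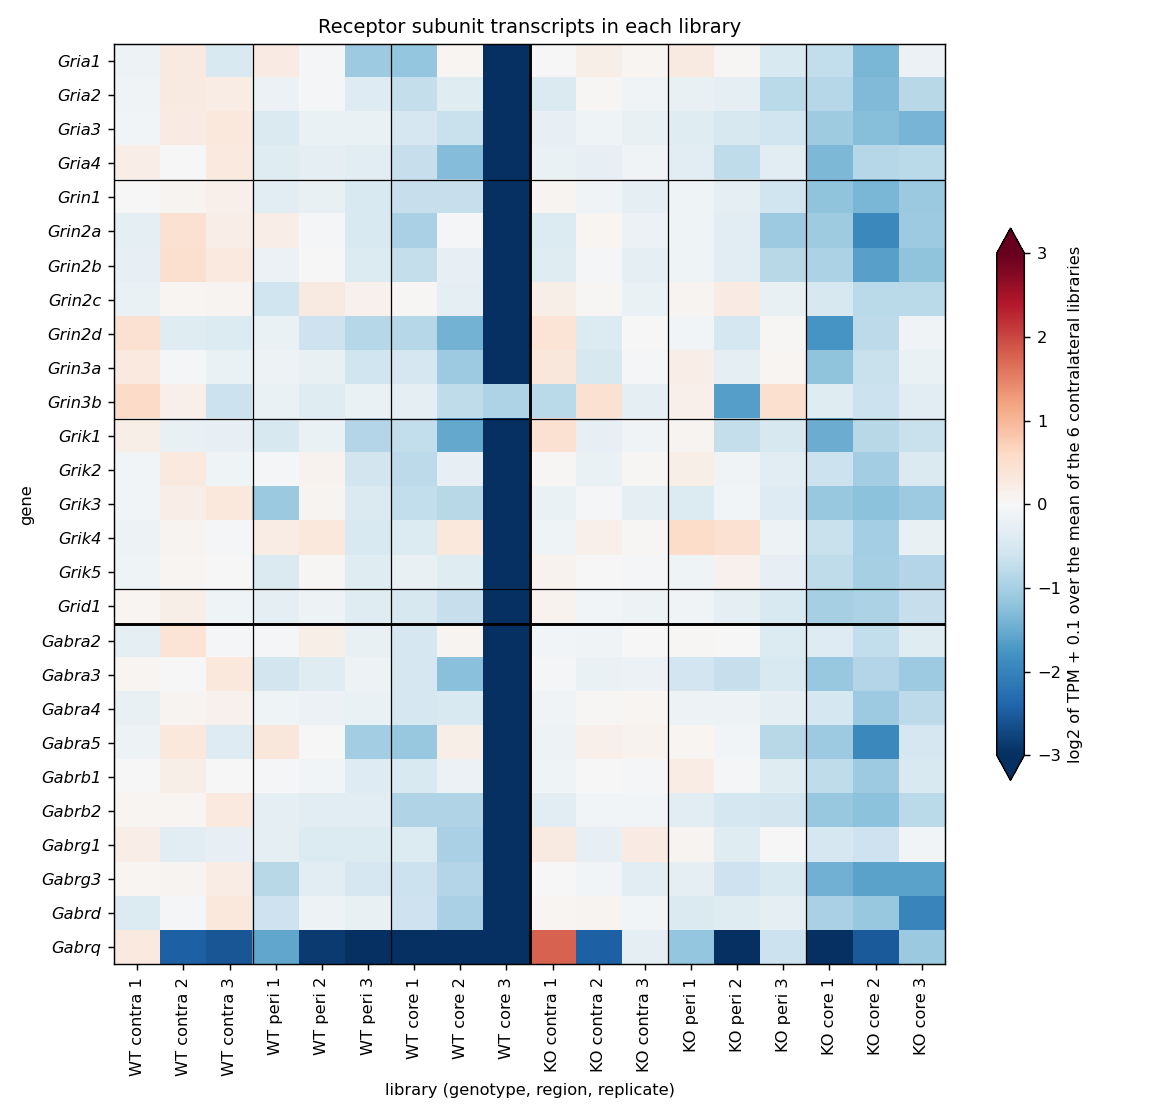
Level of 27 of the 31 subunits (rows, by family) in each of the 18 libraries (columns), as log2 of TPM + 0.1 over the mean of the 6 contralateral libraries, with colours saturating beyond 3 units. The column of wild-type core replicate 3 is dark for nearly all rows, and most subunits are paler blue in the other core libraries.

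Infarct core was compared with the contralateral side to see which subunit transcripts remained at the lesion. Summed member levels were 1299, 1445 and 24.5 TPM in wild-type core replicates 1, 2 and 3. In knockout core they were 1046 ± 141 TPM (SD, n = 3) against 1956 ± 57.2 TPM contralaterally, a level of 53.4%. Without replicate 3 the wild-type core held 62.7% of its contralateral mean. With all 18 libraries, 31 of 31 members had negative log2 fold changes in each genotype. Their median was -1.01 in wild type and -0.73 in knockout, against medians over all genes of -0.03 and -0.01.

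With all 18 libraries, edgeR's quasi-likelihood test with Benjamini-Hochberg adjustment called 2 members lower in wild-type core, where 11.5% of all 15329 genes were called lower and 29.1% higher. It called 0 in knockout core, against 3.31% of genes lower and 19.7% higher, with 1 member at an unadjusted p under 0.05. DESeq2 called 6 and 1, and limma-trend on TPM called 20 and 0, with the shares of all genes in these tools not reported here. The 2 were the AMPA subunit Gria4 (-1.40 ± 0.47, edgeR adjusted p = 0.0297) and the kainate subunit Grik3 (-1.23 ± 0.44, adjusted p = 0.0386). That fit shares 1 spread per gene over all groups, and the median SE of the members in knockout core was 0.72 in it and 0.18 without the outlying wild-type library. In the 17-library fit 11 members fell in wild-type core (16.6% of 15432 genes were called lower) and 22 in knockout core (27.8% of genes). None rose, while 23.6% and 29.6% of all genes did. The 11 wild-type members were all among the 22 of the knockout, 100% of the first list and 50% of the second.

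**Figure D2:**
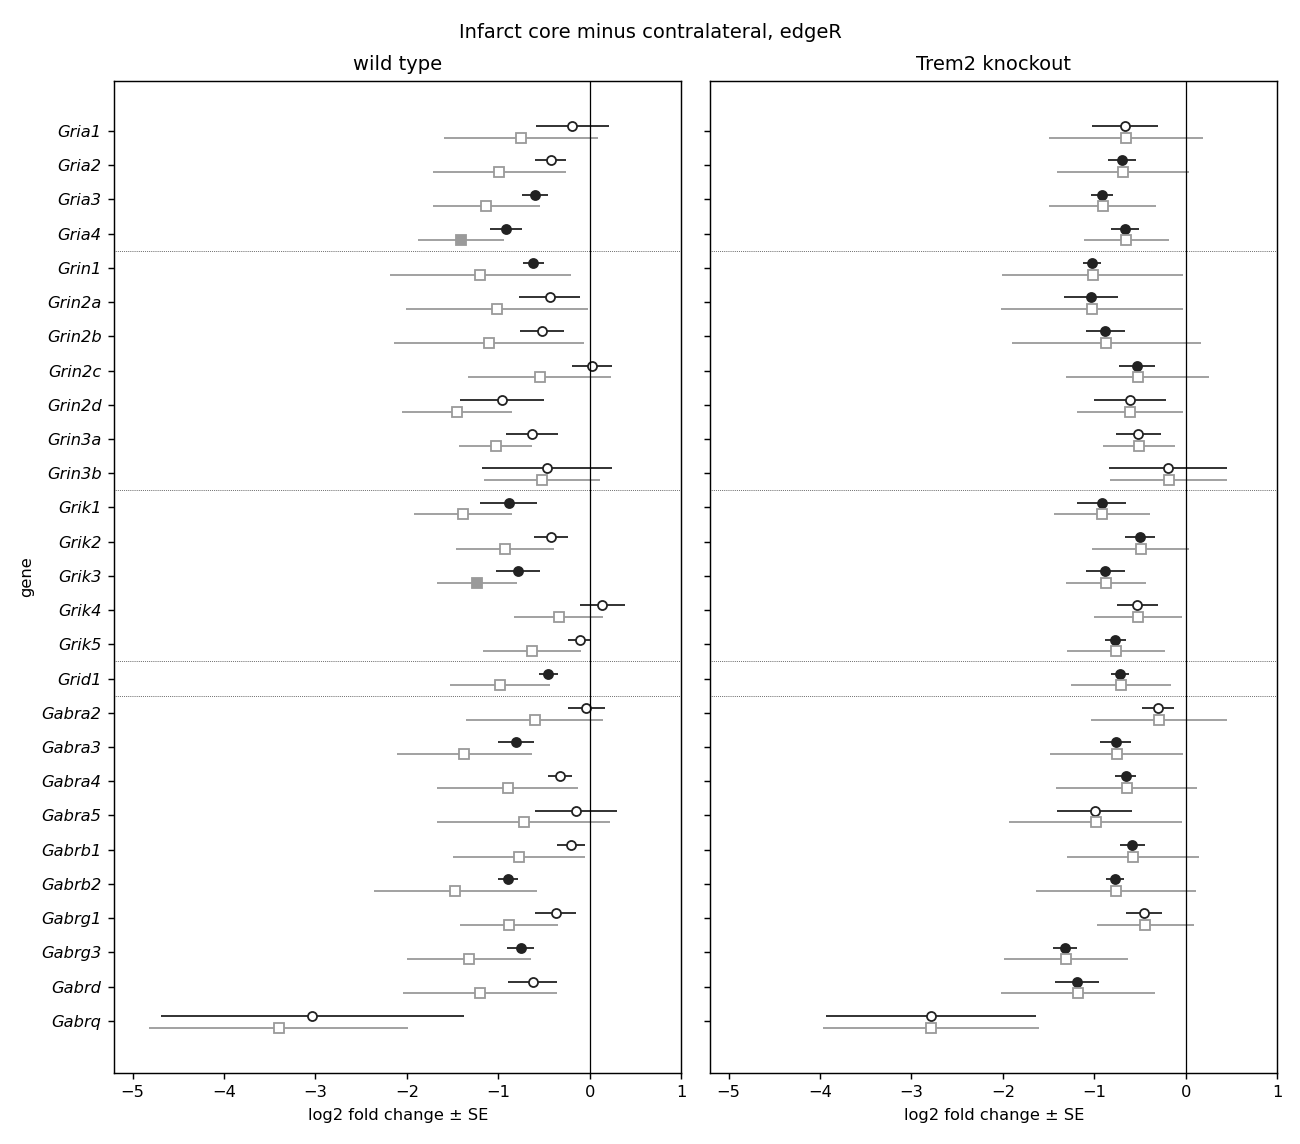
Log2 fold change ± SE of 27 subunits in infarct core against contralateral tissue, for wild type (left) and knockout (right). Grey squares use all 18 libraries and black circles leave out wild-type core replicate 3; filled symbols have an adjusted p under 0.05, and all filled symbols lie below 0.

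Among AMPA subunits, Gria4, whose channels have fast kinetics, was at 75.7, 66 and 80.7 TPM in wild-type contralateral libraries and at 40.7, 26.7 and 2.29 TPM in core. In knockout it was at 58.1, 55.7 and 61.4 TPM against 26.2, 36.7 and 38 TPM. The groups did not overlap, and Gria4 fell in both genotypes in the 17-library fit, by 0.92 ± 0.18 and 0.66 ± 0.15 (edgeR, adjusted p = 0.000742 and 0.00194). Gria3 was at 98.2, 123 and 131 TPM against 73.9, 65.1 and 2.89 TPM in wild type, and at 87.8, 95.6 and 89.8 TPM against 50.1, 43.2 and 39.3 TPM in knockout. Again without overlap, it fell by 0.60 ± 0.14 and 0.92 ± 0.12 (edgeR, adjusted p = 0.00285 and 1.48e-05). Gria2, the subunit that limits calcium entry, was at 214, 276 and 269.5 TPM against 139, 177 and 2.98 TPM in wild type, and at 169, 234 and 213 TPM against 127, 91.1 and 129 TPM in knockout. Its groups did not overlap, but only the knockout fall was called (-0.69 ± 0.15, edgeR adjusted p = 0.00138), and the wild-type change was -0.43 ± 0.17 (adjusted p = 0.0622). Gria1, prominent at synapses that undergo potentiation, was at 171, 229.8 and 139.5 TPM against 85.8, 199 and 1.46 TPM in wild type, where the groups overlapped. Knockout values of Gria1 were 194, 217 and 199 TPM against 114, 73.7 and 170.0 TPM, without overlap but with a wide spread. Its changes of -0.19 ± 0.40 and -0.66 ± 0.36 were not called by edgeR (adjusted p = 0.74 and 0.13).

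Grin1, the obligatory NMDA subunit, was at 214, 229 and 239 TPM in wild-type contralateral and 133, 133 and 0.14 TPM in core libraries. In knockout it was at 227, 201 and 179 TPM against 93.3, 83.1 and 99.5 TPM, and the groups overlapped in neither genotype. The 17-library fit gave falls of 0.62 ± 0.12 in wild type and 1.03 ± 0.10 in knockout (edgeR, adjusted p = 0.000591 and 7.98e-07). Grin2a, which prevails in the adult forebrain, was at 28.5, 48 and 40.7 TPM against 17.9, 34 and 0.05 TPM in wild type, with overlap. In knockout it was at 26.3, 36.5 and 31.1 TPM against 16.8, 9.14 and 16.3 TPM, a fall of 1.04 ± 0.30 (edgeR, adjusted p = 0.00892). Grin2b, which prevails early in development, was at 33.8, 56 and 49.1 TPM against 24.3, 33.9 and 0.02 TPM in wild type, also with overlap. Its knockout values were 31.1, 38.3 and 32.6 TPM against 20.7, 13 and 17.4 TPM, a fall of 0.88 ± 0.21 (edgeR, adjusted p = 0.00269). In wild type the changes of Grin2a (-0.44 ± 0.33) and Grin2b (-0.52 ± 0.24) were not called. Grin2c also fell in knockout (-0.54 ± 0.20). Thus 4 of 7 NMDA subunits fell there (27.8% of all genes) and 1 of 7 in wild type (16.6%). The wild-type count was near the share of all genes. Grin2d, Grin3a and Grin3b were called in neither. The 18-library fit called 0 of 7 in wild type and 0 of 7 in knockout (11.5% and 3.31% of all genes lower).

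Of the kainate subunits, 2 of 5 fell in wild-type core (16.6% of all genes) and 4 of 5 in knockout core (27.8%) in the 17-library fit. With all 18 libraries 1 of 5 and 0 of 5 did (11.5% and 3.31% of all genes). The knockout exception in the 17-library fit was Grik4 (-0.53 ± 0.23, edgeR adjusted p = 0.0565). Grik1 was at 7.38, 5.58 and 5.45 TPM in wild-type contralateral libraries against 3.84, 2.18 and 0.19 TPM in core, a fall of 0.89 ± 0.31 (adjusted p = 0.034). Grik3 was at 22.5, 27.1 and 29.4 TPM against 14.2, 13.4 and 1.64 TPM, a fall of 0.78 ± 0.24 (adjusted p = 0.0178). For neither did wild-type core and contralateral libraries overlap. Grik2, which forms channels alone or with Grik4 or Grik5, was at 19, 25 and 18.4 TPM against 11.8, 17.2 and 0.68 TPM in wild type (-0.42 ± 0.19, not called), and at 21, 17.7 and 20.7 TPM against 13, 9.85 and 14.9 TPM in knockout. The groups did not overlap in either, and the knockout fall was 0.50 ± 0.16 (edgeR, adjusted p = 0.0176). Grik5 was at 84.3, 96.6 and 91.7 TPM against 78.9, 71.8 and 3.91 TPM in wild type, with a change of -0.11 ± 0.13 (edgeR, adjusted p = 0.525). In knockout Grik5 was at 98.9, 93.6 and 88 TPM against 54.1, 46.1 and 50.0 TPM, a fall of 0.77 ± 0.12 (adjusted p = 4.92e-05). Its groups did not overlap in TPM in either genotype, though in wild type they lay close. The delta subunit Grid1, a postsynaptic partner of cerebellins, fell in both (-0.45 ± 0.11 and -0.72 ± 0.10).

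Gabrb2, a beta subunit of synaptic GABA-A receptors, was at 101, 101 and 119 TPM in wild-type contralateral and 52, 51.6 and 0.19 TPM in core libraries. In knockout it was at 76.8, 91.5 and 91.4 TPM against 44.2, 41 and 55 TPM. Every core library lay below every contralateral library of its genotype. In the 17-library fit Gabrb2 fell by 0.89 ± 0.11 in wild type and 0.77 ± 0.10 in knockout (edgeR, adjusted p = 1.29e-05 and 7.38e-06).

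The chromosome 5 genes had a median change of -0.27 in wild type with 0 of 4 called (16.6% of all genes fell). In knockout it was -0.52 with 2 of 4 called (27.8% of all genes fell), Gabra4 (-0.66 ± 0.12) and Gabrb1 (-0.59 ± 0.14). On chromosome 7, Gabrg3 was at 7.4, 7.51 and 8.27 TPM against 4.47, 3.79 and 0.05 TPM in wild type and at 6.97, 6.61 and 5.59 TPM against 2.55, 2.26 and 2.25 TPM in knockout, without overlap. Its knockout fall of 1.32 ± 0.13 (edgeR, adjusted p = 9.32e-07) was the largest among members called there, and its wild-type fall was 0.76 ± 0.15 (adjusted p = 0.000837). Gabra3, on the X chromosome, fell in both (-0.81 ± 0.19 and -0.77 ± 0.17). Gabrd, the extrasynaptic delta subunit, was at 54.1, 69.2 and 88.2 TPM against 46.2, 36.2 and 0.05 TPM in wild type (-0.62 ± 0.27, adjusted p = 0.0762). In knockout it was at 74, 75.2 and 67.5 TPM against 36.4, 32.2 and 18.1 TPM, a fall of 1.19 ± 0.24 (edgeR, adjusted p = 0.00067), and the groups overlapped in neither genotype. In the 17-library fit 5 of 13 GABA-A subunits fell in wild type (16.6% of all genes) and 9 of 13 in knockout (27.8%). With all 18 libraries 0 of 13 and 0 of 13 were called (11.5% and 3.31% of all genes lower).

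In CPM, 25 of 31 members had every knockout core library below every knockout contralateral one (28.9% of all genes). In wild type 19 did with all 18 libraries (28.1%) and 19 without the outlying one (28.9%). The knockout exceptions were Gabrg1, Gabrq, Grik4, Grin2d, Grin3a and Grin3b.

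**Figure D3:**
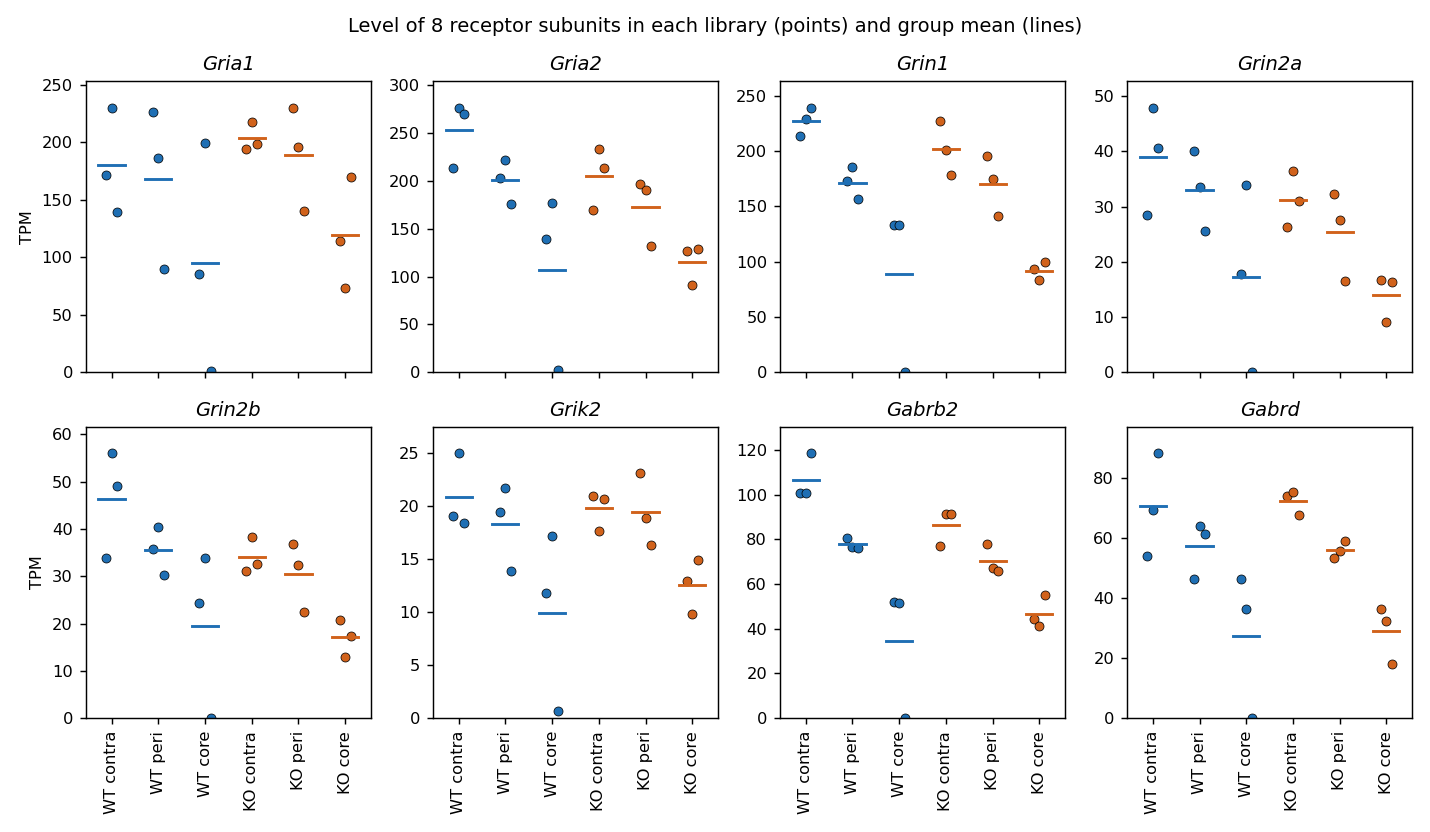
TPM of 8 subunits in each library (points) with group means (lines), wild type in blue and knockout in orange, for contralateral, peri-infarct and core tissue, with axes from 0. Gabrb2 and Grin1 step down from contralateral to core, Gria1 and Grin2a scatter within groups, and the lowest wild-type core point is replicate 3 in each panel.

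Peri-infarct tissue was compared with the contralateral side to see which subunits were lower outside the core. Members summed to 1743 ± 157 TPM in wild type and 1651 ± 208 TPM in knockout (SD, n = 3), which is 79.6% and 84.4% of the contralateral means. With all 18 libraries edgeR called 0 members in wild type (0.00652% of genes lower, 3.27% higher) and 0 in knockout (0.0522% lower, 4.42% higher), with 0 members at an unadjusted p under 0.05 in each. DESeq2 and limma called 0. In the 17-library fit 6 fell in wild type (5.34% of genes) and 3 in knockout (7.61% of genes), while 14.2% and 13.7% of genes rose and no member did. The 3 knockout members were also among the 6 of wild type, 100% of the first list and 50% of the second. One of them was Gabrb2, at 80.6, 76.5 and 76.1 TPM in wild-type and 77.8, 67.4 and 65.8 TPM in knockout peri-infarct libraries. It fell by 0.39 ± 0.10 in wild type and 0.35 ± 0.10 in knockout (edgeR, adjusted p = 0.0087 and 0.0171). Called in wild type alone were Gabrg3 (-0.61 ± 0.13), Gria3 (-0.39 ± 0.12) and Grin1 (-0.35 ± 0.10), whose knockout changes were -0.37 ± 0.13, -0.34 ± 0.12 and -0.29 ± 0.10 with edgeR adjusted p of 0.0566, 0.0601 and 0.0529. Without overlap in CPM were 8 members in wild type (13.5% of genes) and 10 in knockout (14%). Of the 16 pan-neuronal genes 12 fell in wild-type and 11 in knockout peri-infarct tissue, with medians of -0.34 and -0.33 against -0.26 and -0.24 for the members.

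Between core and peri-infarct tissue the 18-library edgeR fit called 0 members in wild type (0.678% of genes lower, 12.3% higher) and 0 in knockout (0% of genes lower and 0% higher), with 1 and 0 at an unadjusted p under 0.05. DESeq2 and limma also called 0. Without the outlying library 1 member fell in wild type (Gabrb2, -0.50 ± 0.11, edgeR adjusted p = 0.0243), where 0.486% of genes fell and 4.88% rose. In knockout 18 fell (15.8% of genes, with 24.3% higher). The largest of these falls were Gabrg3 (-0.96 ± 0.13), Gabrd (-0.78 ± 0.24) and Grin1 (-0.73 ± 0.10), with edgeR adjusted p of 0.000106, 0.0184 and 0.000101. Knockout peri-infarct libraries held 5.72, 4.58 and 5.08 TPM of Gabrg3 and 53.2, 55.8 and 59 TPM of Gabrd, above every knockout core library. Without overlap in CPM were 17 members in knockout (22% of genes) and 8 in wild type, with and without the outlying library (14.4% and 14.9% of genes).

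Neuronal transcripts of many kinds were lower in the core, so libraries were also scaled to equal levels of 16 pan-neuronal genes, which shows whether a subunit changed more or less than those genes. In the 17-library fit on the usual scale all 16 fell in core in both genotypes, with a median of -0.59 in wild type and -0.89 in knockout. The 18-library fit called 0 and 0 of them (11.5% and 3.31% of all genes lower). The scaling moves the median of all genes to 0.58 and 0.86 in core, against 0.10 and 0.14 for the members. In peri-infarct against contralateral tissue edgeR called 0 members in either genotype (0.11% and 0.117% of genes lower, 46.7% and 41.9% higher), with 1 member at an unadjusted p under 0.05 in each. With all 18 libraries it also called 0.

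In wild-type core 5 members were higher relative to the neuronal genes (68% of genes) and 3 lower (0.447% of genes). The 5 were Grik4 (0.76 ± 0.27), Grin2c (0.61 ± 0.20), Gabra2 (0.58 ± 0.22), Grik5 (0.49 ± 0.13) and Gabrb1 (0.40 ± 0.17). The 3 included Gria4 (-0.34 ± 0.15, edgeR adjusted p = 0.0497) and Gabrb2 (-0.29 ± 0.11, adjusted p = 0.027). In knockout core Gabra2 was higher (0.58 ± 0.20, edgeR adjusted p = 0.014, 79% of genes) and Gabrg3 lower (-0.43 ± 0.13, adjusted p = 0.00447, 0.667% of genes). Gabra2, an alpha subunit of synapses on the axon initial segment, was at 20.4, 32.9 and 23.6 TPM against 17.4, 26.1 and 0.2 TPM in wild type and at 23.6, 23.1 and 25 TPM against 18.8, 14.9 and 19.4 TPM in knockout. Its values before scaling were lower in knockout core without overlap and overlapped in wild type, so that it was higher only relative to the neuronal genes. Against peri-infarct tissue Gabrg3 was lower in knockout core (-0.40 ± 0.13, edgeR adjusted p = 0.00968, 1.24% of genes lower and 70.3% higher), and 0 members were called in wild type (0.149% and 29.9% of genes, 2 members at an unadjusted p under 0.05).

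Grin2c is also transcribed in astrocytes. Of 10 astrocyte markers 2 rose in wild-type and 3 in knockout core on the usual scale in the 17-library fit. These counts were near the shares of all genes that rose (23.6% and 29.6%). With all 18 libraries 0 and 1 of the markers rose (29.1% and 19.7% of all genes). Their summed levels were 5127 and 4546 TPM in wild-type core replicates 1 and 2 and 4813 to 6371 TPM in knockout core, against 3689 to 4106 TPM contralaterally. The higher sums lay with Gfap, a filament gene of reactive astrocytes, at 824, 693 and 858 TPM contralaterally and 1844, 1884 and 303 TPM in core in wild type and at 727, 631 and 725 TPM against 3392, 2291 and 3366 TPM in knockout. The other 9 summed to 3283 and 2662 TPM in wild-type core replicates 1 and 2 and 2522 to 2979 TPM in knockout core, against 3058 to 3282 TPM contralaterally. The part of astrocytes in the relative rise of Grin2c was not tested. When all 18 libraries were kept, the neuronal genes of the outlying library were so low that the median of all genes became 5.34 in wild-type core. In that fit 8 members were higher in wild-type core (85.8% of genes, 0.0457% lower) and 8 against peri-infarct tissue (85.1% higher, 0.0652% lower), and 0 in knockout.

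**Figure D4:**
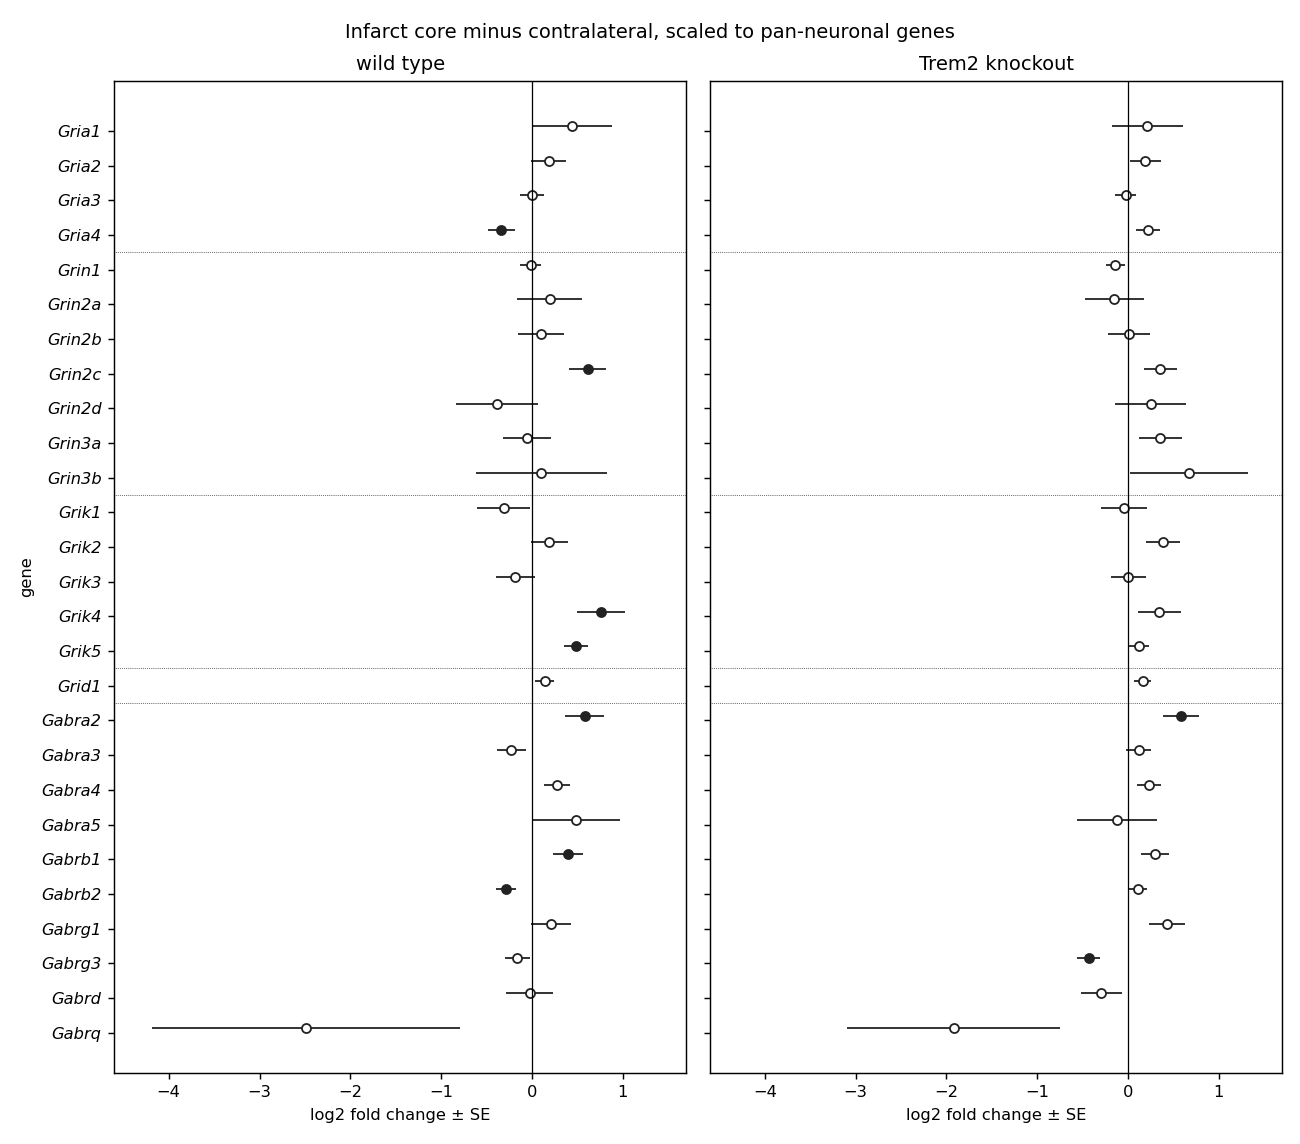
Log2 fold change ± SE of 27 subunits in core against contralateral tissue after scaling libraries to equal pan-neuronal levels, without wild-type core replicate 3; filled circles have an adjusted p under 0.05. Most subunits lie near 0, Gabra2 lies above 0 in both genotypes, and Gabrg3 lies below 0 in knockout.

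Knockout and wild type were compared within each region. With all 18 libraries edgeR called 0 members in contralateral (0.00652% of genes lower, 0% higher), peri-infarct (0.00652% and 0%) or core tissue (0.00652% and 0.00652%). An unadjusted p under 0.05 was reached by 0 members in each region, and the other tools, DESeq2 and limma, called 0. Without the outlying library 0 members were called contralaterally (0.0259% of genes lower, 0.013% higher) and 0 in peri-infarct tissue (0.0778% and 0.0389%), with 3 and 4 at an unadjusted p under 0.05. Among the smallest p contralaterally were those of Gabrb2 (-0.25 ± 0.10) and Gria3 (-0.31 ± 0.12), with edgeR adjusted p of 0.396 and 0.41. In peri-infarct tissue Gabrb2 was among them (-0.21 ± 0.10, edgeR adjusted p = 0.356). Lower in knockout without overlap in CPM were 5 members contralaterally (7.29% of genes) and 2 in peri-infarct tissue (5.62%).

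In core 4 members were lower in knockout in the 17-library fit (2.06% of genes lower and 0.998% higher), with 3 knockout against 2 wild-type libraries. They were Gabrg3 (-0.79 ± 0.15, edgeR adjusted p = 0.0187), Gria3 (-0.63 ± 0.13, adjusted p = 0.0266), Grik5 (-0.57 ± 0.13, adjusted p = 0.0313) and Grin1 (-0.53 ± 0.11, adjusted p = 0.0266). Each had all 3 knockout core libraries below both wild-type ones. That order was shown by 10 of 31 members in CPM (10.9% of genes), against 0 of 31 with all 18 libraries (1.42%). The member median was 0.19 with all libraries and -0.29 without the outlying one. Of the 16 pan-neuronal genes 7 were likewise lower in knockout core in the 17-library fit, with a median of -0.36. After scaling to them 1 member was lower in knockout (Gabrg3, -0.44 ± 0.14, edgeR adjusted p = 0.0212, 0.531% of genes lower and 43.6% higher). The same scaling of all 18 libraries gave 5 lower members, where 83% of all genes were lower and 0.111% higher.

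The difference between genotypes in the response of the core was called for 0 members with all libraries (0% of genes lower, 0% higher) and 0 without the outlying one (0% and 0%), with 0 and 4 at an unadjusted p under 0.05 in edgeR. DESeq2 and limma called 0 with all libraries. The smallest p in the 17-library fit were those of Grik5 (-0.66 ± 0.17), Gabrg3 (-0.56 ± 0.20) and Grin1 (-0.41 ± 0.15), with edgeR adjusted p of 0.355, 0.425 and 0.44. For the peri-infarct response edgeR called 0 members with all libraries (0% and 0% of genes) and 0 without that one (0% and 0%). At an unadjusted p under 0.05 there were 0 and 0, and by DESeq2 and by limma 0. The counts of 11 and 22 members in core are therefore not shown to differ between genotypes.

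Ratios between subunits compare members within 1 library, where a shared loss of neurons cancels. For 8 ratios and 4 contrasts, 32 exact 2-sided permutation tests within genotype or region were made and adjusted by Benjamini-Hochberg. The number called was 0 with all libraries and 0 without the outlying one, with 1 and 2 raw p under 0.05. In a regional contrast the smallest possible p is too large for 1 ratio alone to pass the adjustment over 32 tests. The absence of regional calls therefore does not show equal ratios. The ratio of summed AMPA to summed GABA-A levels was 0.586, 0.705 and 0.575 in wild-type contralateral libraries and 0.572, 0.783 and 2.52 in core. In knockout it was 0.591, 0.663 and 0.628 against 0.65, 0.585 and 0.736, so core and contralateral values overlapped. Its mean core difference was 0.41 on the log2 scale with all libraries (exact permutation p = 0.22, adjusted 0.782, smallest possible 0.005) and 0.09 without the outlying one (exact permutation p = 0.445, adjusted 0.945). Grin2a over Grin2b was 0.843, 0.857 and 0.828 against 0.737, 1 and 1.25 in wild type and 0.846, 0.952 and 0.954 against 0.81, 0.708 and 0.937 in knockout, again overlapping.

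Some members that scattered within groups, Gabra5 and Gria1 among them, varied with markers of the hippocampus. These markers were taken after the data were examined (Prox1, Spink8, Fibcd1, Dsp and Lct), and their mean log2(TPM + 0.1), centred, served as a score. Summed, they were at 31.1, 69.8 and 8.54 TPM in wild-type contralateral libraries, 99.5, 59.7 and 8.49 TPM in peri-infarct and 8.46, 103 and 1.2 TPM in core. In knockout they were at 39.1, 76.3 and 68 TPM contralaterally, 66, 68.2 and 28.6 TPM in peri-infarct and 41.4, 9.28 and 61.4 TPM in core. Gabra5, whose receptors are most abundant in the hippocampus, was at 58.5, 80.7 and 50.0 TPM in wild-type contralateral, 82.4, 64.3 and 31.4 TPM in peri-infarct and 29.4, 73.5 and 0.07 TPM in core libraries. In knockout Gabra5 was at 58.7, 72.5 and 70.6 TPM contralaterally, 68.4, 61.6 and 36.4 TPM in peri-infarct and 30.5, 16.9 and 46.1 TPM in core tissue. The library with the lowest marker sum had the lowest Gabra5 in each of the 6 groups. In wild-type core, replicates 1 and 2 held 29.4 and 73.5 TPM of Gabra5 and 85.8 and 199 TPM of Gria1. Striatal projection neuron markers also varied, and were lower in core. Summed, these were at 222 to 581 TPM in wild-type contralateral, 169 to 910 TPM in peri-infarct and 40.6 to 155 TPM in core libraries. In knockout the striatal sums were 548 to 1231, 725 to 885 and 192 to 291 TPM. Thalamic neuron markers summed to 55.6 to 209 TPM over all libraries. The part of striatal or thalamic tissue in the core changes was not tested.

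With the score as a covariate in the 17-library fit, the slope per log2 unit of the score was 0.30 ± 0.03 for Gabra5, 0.27 ± 0.03 for Gria1, 0.17 ± 0.04 for Grin2a, 0.15 ± 0.03 for Grik4 and 0.11 ± 0.02 for Grik2, and -0.12 ± 0.01 for Gabra3, against a median of -0.01 over all genes. Gabrb2 (0.00 ± 0.02) and Grin1 (0.01 ± 0.02) had slopes near 0. So had other members that scattered within groups, among them Grin2d (0.00 ± 0.09) and Grin3a (-0.01 ± 0.06). Knockout core libraries, for example, held 1.84, 3.76 and 6.08 TPM of Grin2d and 4.64, 6.71 and 9.4 TPM of Grin3a. Slc17a6, a thalamic neuron marker, rose in the same order there, at 9.71, 26.36 and 45.65 TPM. So did the interneuron marker Gad2, at 20.4, 42.35 and 64.12 TPM. Not every group kept this order: wild-type peri-infarct libraries held 49.4, 11.2 and 15.6 TPM of Slc17a6 and 5.64, 4.18 and 3.57 TPM of Grin2d. The part of other brain regions in this scatter was not tested. For Gabrq (0.02 ± 0.33) the SE was larger than the slope of Gabra5, so its slope was left undetermined. The slopes describe the libraries and carry no test, since the markers were picked on them.

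**Figure D5:**
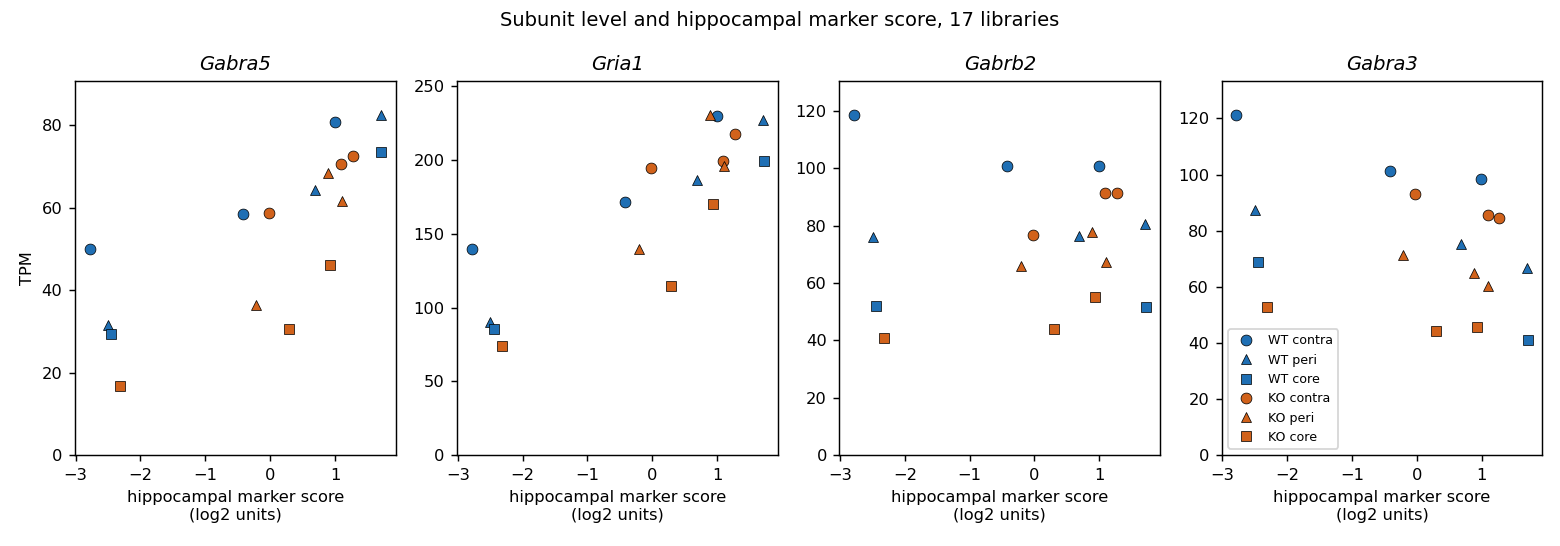
TPM of Gabra5, Gria1, Gabrb2 and Gabra3 against the hippocampal marker score in 17 libraries, wild type in blue and knockout in orange, with circles for contralateral, triangles for peri-infarct and squares for core. Gabra5 and Gria1 are low in libraries with low scores, while Gabrb2 is lower in core than in the other regions at low and high scores. Contralateral and peri-infarct values of Gabrb2 overlap.

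With that covariate the members called lower numbered 17 in wild-type core (18.7% of genes lower, 24.2% higher) and 25 in knockout core (28.4% and 29.4%), and included those called without it. The covariate was chosen after members were seen to follow it, so the calls it adds describe that fit and support nothing. With it the changes of Gria1 were -0.39 ± 0.13 in wild type and -0.42 ± 0.12 in knockout, and that of Gabra5 in knockout was -0.74 ± 0.15, given here with no test. Between genotypes in core 8 members were called lower in knockout (3.51% of genes lower, 1.48% higher): Gabrg3, Gria3, Grik5 and Grin1 as before, and 4 more, among them Gabra5, Gabrb1 and Grin2b. Peri-infarct tissue had 7 lower members in wild type (6.21% lower, 14.8% higher) and 6 in knockout (10.1% and 14.4%), and core against peri-infarct tissue 4 (0.953% and 5.62%) and 21 (17.4% and 24.1%). Contralateral (0.0324% and 0.00648%) and peri-infarct (0.0907% and 0.0324%) comparisons of genotype had 0 and 0 members, with 4 and 6 at an unadjusted p under 0.05 in edgeR. The differences in response had 0 in core (0% and 0%) and 0 in peri-infarct tissue (0% and 0%), with 5 and 0. How the tissue was cut was not tested.

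Partners of these receptors were counted from lists in the 17-library fit, in which 16.6% of all genes fell in wild-type and 27.8% in knockout core, 23.6% and 29.6% rose, and the medians over all genes were -0.02 and -0.02. Of 17 AMPA receptor auxiliary subunits 6 fell in wild-type core and 15 in knockout core (medians -0.27 and -0.75). Among them Cacng2, or stargazin, which carries AMPA receptors to the synapse, fell by 0.74 ± 0.09 and 1.01 ± 0.08 (edgeR, adjusted p = 8.21e-06 and 5.18e-08), and Syndig1 by 0.71 ± 0.11 and 0.97 ± 0.10. Of 9 kainate and delta receptor partners 5 and 6 fell (medians -0.54 and -0.91), with the neurexin Nrxn3 at -0.85 ± 0.10 and -1.10 ± 0.09 and the cerebellin Cbln4 at -1.58 ± 0.23 and -1.28 ± 0.20. Of 19 glutamate receptor scaffolds 8 fell and 1 rose in wild type, and 18 fell and 1 rose in knockout (medians -0.32 and -0.84). The scaffold that rose was Homer3 (1.33 ± 0.35 and 0.81 ± 0.32). Pick1 fell in both (-0.31 ± 0.08 and -0.59 ± 0.07) and Shank3, of the postsynaptic density, in knockout (-0.92 ± 0.12). In core 10 of the scaffolds were lower in knockout than in wild type in that fit, where 2.06% of all genes were, among them Shank3 (-0.76 ± 0.14) and Camk2a (-0.76 ± 0.16). In the 18-library fit 0 scaffolds and 0.00652% of all genes were called lower there. Of 14 genes of GABA-A receptor anchoring, assembly and trafficking 6 fell and 1 rose in wild type, and 9 fell and 1 rose in knockout (medians -0.33 and -0.56). The gene that rose was Gabarap, which binds GABA-A receptors and acts in autophagy (0.75 ± 0.08 and 0.81 ± 0.07), and Lhfpl4, a partner of synaptic GABA-A receptors, fell (-0.56 ± 0.07 and -0.74 ± 0.06).

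Among other receptors for these transmitters, 3 of 7 metabotropic glutamate receptors fell in wild-type and 6 in knockout core (medians -0.39 and -0.65), with Grm7 at -0.55 ± 0.11 and -0.63 ± 0.09. Both GABA-B subunits fell, Gabbr2 by 0.50 ± 0.08 and 0.92 ± 0.07 and Gabbr1 by 0.46 ± 0.09 and 0.75 ± 0.08. Gabbr2 was also lower in knockout than in wild-type core without the outlying library (-0.54 ± 0.08, edgeR adjusted p = 0.00978, 2.06% of all genes lower). In the 18-library fit Gabbr2 was not called lower there, where 0.00652% of all genes were. The glycine receptor subunits Glrb (-0.78 ± 0.10 and -0.68 ± 0.09) and Glra2 (-1.08 ± 0.29 and -0.98 ± 0.26) fell in both genotypes, 2 of 5. Of 19 genes for transmitter synthesis, vesicular loading and uptake 6 and 8 fell (medians -0.40 and -0.46). Among these were the chloride exporter Slc12a5 (-0.69 ± 0.10 and -0.80 ± 0.09), which keeps GABA-A currents inhibitory, and Gad1, which makes GABA (-1.11 ± 0.23 and -0.84 ± 0.20). No gene of these lists was called in knockout core with all 18 libraries, where 3.31% of all genes were lower and 19.7% higher. In wild-type core that fit called among others Cbln4, Dlg1, Gphn, Ubqln1 and Slc6a9 lower and Homer3 and Gabarap higher (11.5% and 29.1% of all genes). In the 17-library fit 9 of 12 interneuron markers fell in each genotype, and of 12 excitatory cortical markers 2 fell in wild type and 6 in knockout, the first of these near the share of all genes that fell (16.6%). When all 18 were used 2 and 1 interneuron and 1 and 0 cortical markers fell, where 11.5% and 3.31% of all genes did. The wild-type counts were near that share. The part of these cell types in the changes was not tested.

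The outlying wild-type core library kept subunits unequally. Against the mean of wild-type core replicates 1 and 2 its members were at a median of 1.46%, pan-neuronal genes at 0.757% and genes at 1 TPM or more at 61.9%. Kainate subunits were at a median of 6.31% and AMPA subunits at 3.02%, while GABA-A subunits were at 0.879% and NMDA subunits at 0.762%. The families overlapped, with ranges of 4.69% to 11.9% (kainate), 1.03% to 6.80% (AMPA), 0.0709% to 16.7% (GABA-A) and 0.0688% to 61.9% (NMDA). The highest, Grin3b, was near the floor in both (0.13 against 0.21 TPM). Grin2b was at 0.0688% (0.02 against 29.1 TPM), while Grik3 was at 11.9% (1.64 against 13.8 TPM) and Grin3a at 16.4% (1.04 against 6.33 TPM). The remaining levels were highest for Grik5 (3.91 TPM), Gria2 (2.98 TPM), Gria3 (2.89 TPM) and Gria4 (2.29 TPM). These come from 1 library and carry no test.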

How the data were processed

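RNA from 18 mouse brain samples (6 groups of genotype and region, 3 libraries each) was read from tables the authors deposited for 18922 genes. HISAT2 2.0.4, Bowtie2, Subread and the build GRCm39 (mm39) appear in the submitters' processing notes, and which tool made the values is not stated there. The authors deposited expected counts, of which 19.4% of genes had values that were not whole. These were rounded, although the planned tests had assumed whole counts. The authors also deposited TPM, used for levels and ratios. CPM were computed here from the counts.

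Counts were fitted with edgeR 4.0.16 in R 4.3.3 (filterByExpr, TMM, a mean for each of 6 groups, robust quasi-likelihood test) over 15329 genes, or 15432 without wild-type core replicate 3, with Benjamini-Hochberg adjustment over all of them and a threshold of 0.05. Values are log2 fold changes, and their SE is the size of the change over the root of its F statistic. Scaling to 16 pan-neuronal genes replaced the TMM factors. Ratios used log2(TPM + 0.1) and exact permutation within genotype (regions) or region (genotypes). Alternatives were DESeq2 1.42.0, limma 3.58.1 on log2(TPM + 1), RLE factors, no filter, only the groups compared, a replicate block and each library left out. The edgeR script was tested on simulated data with known changes.

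Members, lists, tests and alternatives were chosen with earlier results of these data known. Named were 10 set subunits (by library), the 3 largest falls and rises among members called in each comparison or the 3 smallest p where none was, and in each partner list the 2 genes with the smallest p. Some genes that this rule names are not reported here. Other genes named, the hippocampal markers, the covariate and the description of single libraries were chosen after their values were seen.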

Additional observations from a re-analysis of the deposited data

How the results depend on the processing

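Leaving out each library in turn gave 0 to 6 members called in wild-type peri-infarct against contralateral tissue, 0 to 11 in wild-type core, 0 to 4 in wild-type core against peri-infarct, 0 to 3 in knockout peri-infarct, 0 to 22 in knockout core, 0 to 18 in knockout core against peri-infarct and 0 to 4 in core between genotypes. The highest came without wild-type core replicate 3, except in wild-type core against peri-infarct, where replicate 3 gave 1 and replicate 1 gave 4. In wild-type core, leaving out contralateral replicates 1, 2 or 3 gave 0, 1 and 0, and core replicate 1 gave 8. In wild-type core, where the count was 2, RLE factors gave 4, DESeq2 6, limma-trend on log2(TPM + 1) 20 and a fit of only its groups 0. DESeq2 gave 1 in knockout core. Fitting only the groups compared gave 4 in wild-type peri-infarct tissue, 6 in knockout peri-infarct tissue, 25 in knockout core and 19 in knockout core against peri-infarct, none of which uses the outlying library. With the replicate block the wild-type core count was 5. For the tools, factors, group fits and blocks in this paragraph the shares of all genes called are not reported here. Their counts therefore show how calls vary, and not how members stand against all genes. With the replicate block and without the outlying library the counts were 6, 15, 2, 5, 26 and 18 in the regional comparisons, in the order above, and 1 in core between genotypes, where the block left Gabrg3 of the 4 called without it. With the hippocampal score and without that library they were 7, 17, 4, 6, 25 and 21, and 8. Same-numbered libraries correlated above 0.1 in every pair only between wild-type contralateral and peri-infarct tissue (0.386 to 0.436), so a shared number was not taken as a pairing. On the neuronal scale, leaving that library out gave 0 in wild-type core against peri-infarct (8 with it), 2 and 1 in knockout core against contralateral and peri-infarct, and 1 in core between genotypes (5 with it, where 83% of all genes were called lower).

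The core difference between genotypes changed sign with single libraries. The member median ran from -0.29 to 0.62 over the libraries left out, and without the outlying library was -0.29 with the block and -0.29 with the score. Gabrg3 ran from -0.79 to 0.27, Gria3 from -0.63 to 0.33, Grik5 from -0.57 to 0.34 and Grin1 from -0.53 to 0.45. With limma on TPM Gabrg3 was 0.15, Gria3 0.75 and Grik5 0.74, with the replicate block Grik5 was 0.0707, and without the outlying library Grin1 was -0.50 with the block and -0.53 with the score. The cause was not tested. No ratio was called under the alternatives run, where 1 regional ratio alone could not have been called. The low counts of Gabrq and Grin3b limit them, with SEs of 1.15 and 0.65 in knockout core without that library.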

Other observations

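Gabrq, the theta subunit, which is found mainly in hypothalamus and brainstem, was at 6.44 TPM in contralateral replicate 1 of the knockout and at 0.02 to 2.23 TPM in the other 17 libraries. In that library the hypothalamic genes Hcrt and Pmch, chosen after their values were seen, summed to 141 TPM, against 0 to 2.81 TPM elsewhere. Gabre, a neighbour of Gabrq on the X chromosome that did not pass the count rule, was at 1.98 TPM there. The part of other brain regions in these values was not tested.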
